A study of Mus musculus with 4 samples.

Results

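The genes described are 4 alpha-tubulin genes (Tuba1a, Tuba1b, Tuba1c and Tuba4a), 3 beta-tubulin genes (Tubb5, Tubb4b and Tubb6) and the 3 nuclear lamin genes (Lmna, Lmnb1 and Lmnb2). They were chosen by gene symbol, with earlier results of these data known, and all 10 names had a row among the 16142 genes of the expression table. The study used the R111A mutant, a form of the RNA-degrading protein Regnase-1 that resists cleavage by the protease MALT1. It asked what Regnase-1 does in T cells, chiefly in regulatory T cells (Tregs). RNA of splenic CD4+ T cells was sequenced in 2 WT and 2 R111A libraries, and expression was given in FPKM, a read count per gene length and library size. All cells had been sorted and then activated through CD3 (antibody at 5 µg/mL) and CD28 (1 µg/mL) over 12 h, so resting cells were not analysed here. The general methods describe a gate on GFP in mice that carry it and a split by CD25, but the labels do not say which sorted cells the libraries hold, so the shares of Tregs and of cells with an active transgene are not known. The WT libraries came from B6 mice and the R111A libraries from Cd4CreERT2LSL-R111Afl/fl mice on the C57BL/6 background, in which Cre under control of Cd4 becomes active with tamoxifen (75 mg/kg, i.p., 5 days) and removes a STOP cassette in Rosa26, so that the CAG promoter drives the R111A coding sequence together with EGFP. Mice of both sexes aged 6 to 12 weeks were used in the study in general, and the sentence on tamoxifen, the same in all 4 labels, can be read as covering the WT mice too. WT cells had no Cre and no transgene, so effects of Cre, EGFP or overexpression as such and effects of the R111A change cannot be told apart. The labels do not say whether the replicates came from separate animals, so p-values measure only the spread between these samples, which may be technical.

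Microtubules are hollow polymers of dimers that each hold an alpha- and a beta-tubulin, and cells encode each subunit in several near-identical genes that are used to different extents in different tissues. T cells that leave quiescence enlarge, reorient their microtubules toward the contact with an antigen-presenting cell and later build a spindle, and the amount of tubulin mRNA is itself held in check by the level of free tubulin. Nuclear lamins are intermediate filament proteins under the inner nuclear membrane, of which B-type lamins (Lmnb1 and Lmnb2) are found in nearly all cells, whereas A-type lamins (Lmna) are scarce in resting lymphocytes.

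The libraries carried the RNA of T cells. All 8 markers of CD4+ T cells were tested, and their FPKM summed to 1805 and 1785 in the WT replicates and to 1520 and 1397 in the R111A replicates, with Cd3g the most abundant. Among them Cd4 was called lower (158 and 131 FPKM in WT, against 70.7 and 51.4 in R111A) and Il7r higher (4.58 and 3.77 FPKM, against 43.6 and 37.5). Cd8a stayed at or under 0.20 FPKM in every library. Zc3h12a, which encodes Regnase-1, was at 17.0 and 15.7 in the WT libraries and 196 and 131 FPKM in the R111A libraries, and the values do not tell RNA of the transgene from that of the endogenous gene. Markers of other cells were low but not equal between the groups. The 6 erythroid markers summed to 0.66 and 0.70 FPKM in WT and to 12.9 and 13.0 FPKM in R111A, nearly all from Hba-a1, while Hbb-bs and Hba-a2 were at 0 in all 4 libraries. Sums over the 6 myeloid markers were 4.22 and 1.51 FPKM in WT and 7.72 and 6.97 FPKM in R111A (Fcer1g the most abundant, with Tyrobp on the other side at means of 1.78 and 0.91 FPKM), those over the 5 B cell markers 2.13 and 0.95 against 5.13 and 4.49 FPKM (Cd79a), those over the 4 NK cell markers 1.14 and 1.00 against 7.61 and 5.30 FPKM (Eomes), and those over the 5 stromal and endothelial markers 5.76 and 4.99 against 18.5 and 12.6 FPKM. The last sum was nearly all Pecam1, and Col1a1, Col1a2 and Pdgfrb, at most 0.03 FPKM in WT, were at 0 in both R111A libraries. The 2 markers of CD8+ T cells went the other way, at 7.31 and 6.76 FPKM in WT, against 3.88 and 4.46 in R111A (Cd8b1). The 4 Treg markers summed to 195 and 194 FPKM in WT and to 141 and 147 FPKM in R111A, mostly from Il2ra, which was not called. Foxp3 (11.3 and 8.78 FPKM in WT, against 2.86 and 1.86 in R111A) and Ctla4 (38.9 and 44.3 FPKM, against 8.94 and 12.0) were called lower. Ikzf2 was not called, and its groups overlapped (4.5 and 4.34 FPKM in WT, against 2.35 and 4.36 in R111A). The part of these cells in the tubulin and lamin values was not tested.

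Differences were tested with limma on log2(FPKM + 1) over the 9831 genes whose mean reached 1 FPKM, and genes past an adjusted p of 0.05 and a 2-fold change were called. For genes below 2-fold, a call said to be lost is a pass of the adjusted p alone. On this scale the change of low genes is understated. Of all genes tested, 8.34% were called lower and 8.52% higher in R111A, and by the adjusted p alone 32.1% were lower and 21.2% higher. Of the 10 tubulin and lamin genes, 9 were tested, since Lmna had a mean below the filter. Tuba1b, Tuba4a, Tubb5 and Lmnb1 were called lower and Tuba1a was called higher, and by the adjusted p alone Tubb6 was higher as well. The genes were chosen with earlier results of these data known, so the number called cannot be judged against the shares over all genes. The median log2 fold change of the 9 genes was -0.26, and that of all genes -0.12. Rescaling to TPM, with equal sums for all libraries, moved these medians to -0.58 and -0.42. The split of calls went from 820 lower and 838 higher genes to 1749 lower and 583 higher genes. Still, the same 5 tubulin and lamin genes had a 2-fold change past the adjusted p under every scaling tried.

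**Figure D1:**
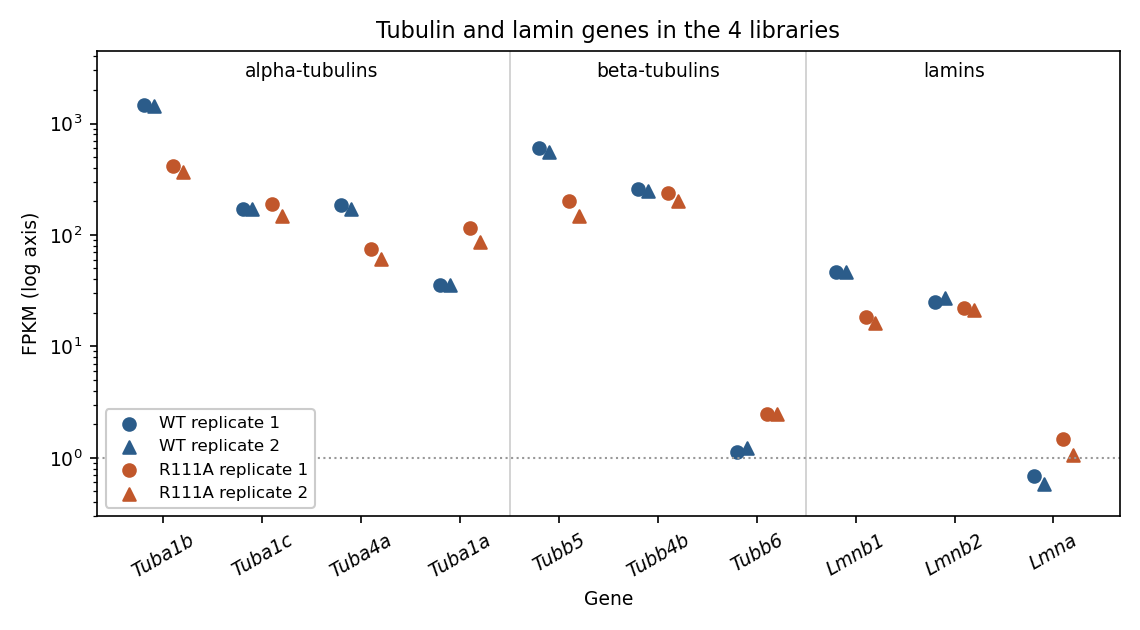
FPKM (log axis) of the 10 tubulin and lamin genes in 2 WT libraries (blue) and 2 R111A libraries (orange), with circles for replicate 1, triangles for replicate 2 and a dotted line at the filter of 1 FPKM. Tuba1b, Tuba4a, Tubb5 and Lmnb1 lie lower in R111A and Tuba1a lies higher, while Tuba1c overlaps.

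Tuba1b (NCBI gene 22143) was the most abundant tubulin gene in every library. It encodes an alpha-tubulin that is made in most tissues. Its FPKM was 1469 and 1439 in the WT libraries (replicates 1 and 2 in this order throughout), against 419 and 369.6 in the R111A libraries. Both R111A libraries lay far below both WT libraries, and the mean was 3.69-fold lower. By rank of the mean FPKM among all genes of the table, Tuba1b moved from place 91 in WT to place 225 in R111A. Relative to the median of all genes, its log2 fold change was between -1.76 and -1.83 as deposited and under each of 3 other scalings. In such bulk samples, fewer cells of a type that express a gene and less of its RNA per cell cannot be told apart.

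Tuba1a (NCBI gene 22142), the alpha-tubulin best known from developing neurons, moved in the opposite direction. It was at 35.6 and 35.9 in the WT libraries and 114 and 86.9 FPKM in the R111A libraries. The lowest R111A value was above both WT values, and the mean was 2.82-fold higher. The log2 fold change of Tuba1a was 1.46 (standard error 0.16, adjusted p = 1.3e-04 from limma with Benjamini-Hochberg adjustment), higher in 2 of 2 R111A libraries. The ratio of Tuba1b to Tuba1a FPKM, chosen after the values were seen, was 41.3 and 40.2 in WT and 3.66 and 4.26 in R111A.

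Tuba1c (NCBI gene 22146) showed no such difference. It was at 169 and 170.2 FPKM in WT, against 191 and 149 in R111A, so the WT values fell between those of the 2 R111A libraries. Its log2 fold change was -0.01 with a 95% confidence interval from -0.34 to 0.33 (adjusted p = 0.97, limma), an interval that leaves out a 2-fold change in either direction but not smaller ones. The sign of this value differed between scalings, from -0.34 after rescaling to TPM to 0.21 after quantile normalization, and no setting called it.

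Tuba4a (NCBI gene 22145), an alpha-tubulin that is made without the C-terminal tyrosine of the others, was at 185 and 171 in the WT libraries and 75.0 and 60.8 FPKM in the R111A libraries. Both R111A values were below both WT values. The mean of Tuba4a was 2.62-fold lower, with a log2 fold change of -1.38 (limma, adjusted p = 1.1e-04, standard error 0.14). Tuba4a overlaps Stk16 and A630095N17Rik in the RefSeq annotation, and reads of the overlap could not be assigned here.

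The 3 Tuba1 genes form a cluster in GRCm38, the assembly of mm10 (RefSeq annotation of GRCm38.p6). Tuba1b lies at chr15:98931429-98934390 on the minus strand, Tuba1a at chr15:98949847-98953501 on the minus strand and Tuba1c at chr15:99029891-99038105 on the plus strand. Of the 2 other protein-coding genes within 40000 bases of the cluster, Lmbr1l was at 16.1 and 17.96 FPKM in WT, against 36.1 and 29.6 in R111A, and Prph was at or near 0 (at most 0.20 FPKM). So within the cluster Tuba1b was lower, Tuba1a higher and Tuba1c in between. An lncRNA gene, Gm41396, overlaps Tuba1b in the annotation and had no row in the table.

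The coding sequences of these 3 genes are so alike that reads may be shared among them. In GENCODE M21 transcripts, the coding sequence of Tuba1b was 98.3% identical to that of Tuba1a and 98.4% identical to that of Tuba1c, and Tuba1a and Tuba1c were 97.6% identical, whereas Tuba4a was 85.6% identical to Tuba1b. Of all 50-base windows of the transcript, 64.6% in Tuba1b, 52.0% in Tuba1a and 59.8% in Tuba1c also occurred in another alpha-tubulin gene, and of all 150-base windows 43.4%, 29.4% and 46.7% did. For Tuba4a the share was 0.0% at either length. RSEM divides shared reads by a model, so the values of the 3 Tuba1 genes are less certain than those of Tuba4a, and each of them still has windows of its own. When the 3 genes were summed, which depends on that division only as far as their transcripts differ in length (1743, 1803 and 1982 bases for Tuba1b, Tuba1a and Tuba1c), the FPKM was 1674 and 1645.5 in WT and 725 and 606 in R111A. The sum was 2.49-fold lower in R111A (log2 fold change -1.32, adjusted p = 9.4e-05, limma). How far shared reads enter the opposite changes of Tuba1a and Tuba1b was not tested.

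Among the beta-tubulins, Tubb5 (NCBI gene 22154; chr17:35833920-35838301, minus strand), the main beta-tubulin of lymphoid and other dividing cells, was at 609 and 555 in the WT libraries and 203 and 149 FPKM in the R111A libraries. Each R111A library was below each WT library. The mean was 3.30-fold lower (log2 fold change -1.73, standard error 0.16, adjusted p = 6.6e-05, limma). Over the alternatives the log2 fold change of Tubb5 stayed between -2.07 and -1.51, with an adjusted p of at most 0.0051.

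Tubb4b (NCBI gene 227613; chr2:25222158-25224702, minus strand), a broadly expressed beta-tubulin, was at 257 and 250.03 FPKM in WT, against 240.1 and 201 in R111A. The groups did not overlap, but the gap was small beside the spread of the R111A replicates. The log2 fold change of Tubb4b was -0.20 (95% confidence interval from -0.51 to 0.10, adjusted p = 0.23, limma), which leaves out a 2-fold change but not a smaller one. It passed without R111A replicate 1 (-0.33, limma, adjusted p = 0.021) and in TPM (-0.54, adjusted p = 0.0037), with adjusted p from 0.0037 to 0.96 over all alternatives, and its sign turned after quantile normalization (0.01). The fit without an R111A replicate takes its spread from the closer WT pair alone, so its adjusted p may be too small. Relative to the median of all genes the TPM value was -0.12. Fam166a overlaps Tubb4b in the annotation.

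Tubb6 (NCBI gene 67951) was rare in these cells. It was at 1.12 and 1.22 in the WT libraries and 2.47 and 2.49 FPKM in the R111A libraries. Both R111A values were above both WT values. In FPKM the mean was 2.12-fold higher, and on the log2(FPKM + 1) scale the change of Tubb6 was 0.68 (standard error 0.14, adjusted p = 0.0032, limma), below the 2-fold threshold. With a pseudocount of 0.1 FPKM, which understates low genes less, it was 1.02.

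In contrast to the Tuba1 genes, Tubb5, Tubb4b and Tubb6 share few long identical stretches with other beta-tubulin genes. Their coding sequences were still alike, with 86.4% identity between Tubb6 and Tubb3. The coding sequence of Tubb5 was 82.4% identical to that of Tubb4b and at most 84.7% identical to that of any other beta-tubulin gene compared, and the share of 150-base windows found in another beta-tubulin transcript was 0.0% for Tubb5, Tubb4b and Tubb6.

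The promoters of tubulin genes that differed between the groups, and of those that did not, are shown. They are what the genes may have in common apart from the coding sequence. RefSeq windows of GRCm38.p6, which reach from 250 bases before to 50 bases after the start of a gene, were used for 8 of the 10 genes (10 windows). Both strands were searched for E2F-type letters (TTCCCGC, or else the variant TTGGCGC), CHR-type letters with the order TTTGAA, then for the letters CCAAT of the box so named, the letters GGGCGG of a GC box and the letters TATAAA of a TATA box, and no matches of different motifs overlapped in the windows of tubulin and lamin genes. The 100 bases upstream of the start are printed in the direction of the gene. GC boxes and CCAAT boxes of either strand that lie wholly within them are in capitals. A GC box of Tubb5 (from -2) and a GC box of Tubb4b (from -1) run past the start and are not marked. Tuba1b (chr15:98934391-98934490, minus strand) and Tubb5 (chr17:35838302-35838401, minus strand) were lower in R111A. Tuba1a (chr15:98953502-98953601, minus strand) and Tubb3 (chr8:123411453-123411552, plus strand), a beta-tubulin described with the other tubulin genes, were higher. Tuba1c (chr15:99029791-99029890, plus strand) and Tubb4b (chr2:25224703-25224802, minus strand) were not called.
Tuba1b: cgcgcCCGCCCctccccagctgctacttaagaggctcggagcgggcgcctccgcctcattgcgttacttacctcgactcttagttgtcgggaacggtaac
Tubb5: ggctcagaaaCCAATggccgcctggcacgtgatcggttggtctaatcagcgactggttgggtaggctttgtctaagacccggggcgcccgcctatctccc
Tuba1a: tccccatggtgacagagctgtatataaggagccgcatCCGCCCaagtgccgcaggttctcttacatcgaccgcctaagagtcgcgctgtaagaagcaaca
Tubb3: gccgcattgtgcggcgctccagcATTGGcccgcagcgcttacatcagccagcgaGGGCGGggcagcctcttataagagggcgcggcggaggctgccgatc
Tuba1c: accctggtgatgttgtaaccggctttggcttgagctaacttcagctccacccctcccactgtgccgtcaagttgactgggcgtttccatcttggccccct
Tubb4b: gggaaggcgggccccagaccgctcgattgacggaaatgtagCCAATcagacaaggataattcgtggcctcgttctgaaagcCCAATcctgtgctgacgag

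Over the whole windows, Tuba1b, Tuba4a and Tubb5, which were lower in R111A, each had 2 GC boxes, and Tubb4b, which was not called, had 2 as well. Tuba1a had 1 GC box and 1 CCAAT box, Tuba1c had 1 CCAAT box and no GC box, Tubb5 had 2 CCAAT boxes and Tubb4b had 5. Among these 10 windows, the E2F-type letters were found in 1 of the 2 Lmnb2 windows, and the CHR-type and TATA letters in that of Tubb4b. These TATA letters lie 18 bases after the start. Outside these 10 windows, Tubb3, which was called higher, and Tubb2a, higher by the adjusted p alone, had 2 GC boxes each. The window of Tubb2a had TATA letters as well. Over all 32851 windows, 35.7% had a GC box, 37.4% a CCAAT box, 6.8% the E2F-type, 17.9% the CHR-type and 13.6% the TATA letters, and over the 10184 windows of genes whose mean reached 1 FPKM the shares were 63.9%, 38.3%, 12.4%, 12.1% and 6.8%. These are matches of letters and not shown to be sites, and each motif found in Tuba1b, Tuba4a or Tubb5 was also found in a gene that was not lower. No window of Lmnb1 or Tubb6 was searched.

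Of the lamins, Lmnb1 (NCBI gene 16906), a farnesylated B-type lamin of the nuclear envelope, was at 46.4 and 46.5 FPKM in WT, against 18.5 and 16.3 in R111A. Within each group the replicates were close and the groups were far apart. The mean was 2.67-fold lower, and the log2 fold change lay between -1.46 and -1.28 when each library was left out in turn.

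Lmnb2 (NCBI gene 16907; chr10:80901363-80918245, minus strand), the other B-type lamin, changed far less. It was at 25.1 and 27.4 in the WT libraries and 22.3 and 21.2 FPKM in the R111A libraries. The R111A values lay just below the WT values. The log2 fold change of Lmnb2 was -0.26 (95% confidence interval from -0.56 to 0.04, adjusted p = 0.13, limma), so a 2-fold change lies outside the interval. As with Tubb4b, it passed without R111A replicate 1 (-0.30, limma, adjusted p = 0.047) and in TPM (-0.58, adjusted p = 0.0037), with adjusted p from 0.0037 to 0.63 over all alternatives, and the TPM value was -0.17 relative to the median of all genes. Here too the adjusted p without R111A replicate 1 may be too small, as it rests on the spread of the WT pair.

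Lmna (NCBI gene 16905; chr3:88481148-88509932, minus strand), which encodes lamins A and C, was the least abundant of the 10 genes. It was at 0.68 and 0.58 FPKM in WT, against 1.46 and 1.05 in R111A. Both R111A values exceeded both WT values, at levels close to the filter of 1 FPKM. It was not tested in the fit with the filter. With no filter the log2 fold change of Lmna was 0.46 (adjusted p = 0.040, limma). This call was lost under 7 of 12 other settings, those without WT replicate 1, WT replicate 2 or R111A replicate 1 among them (0.33 to 0.51), with adjusted p from 0.024 to 0.25 over all of them.

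**Figure D2:**
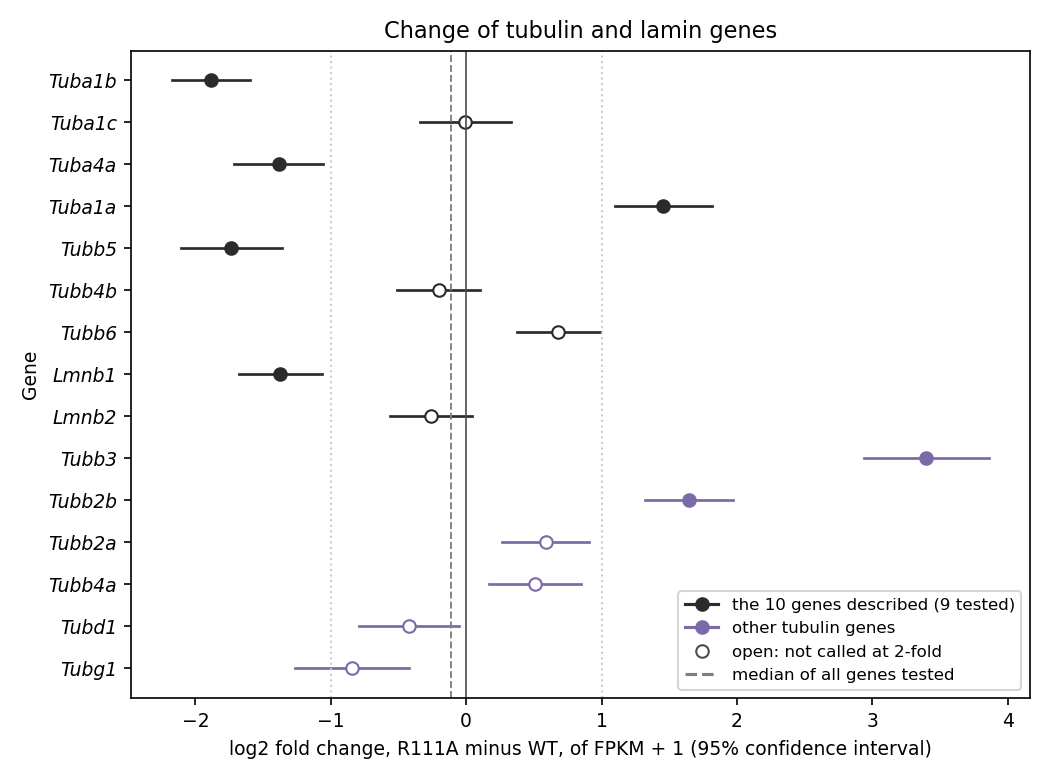
Log2 fold change (R111A minus WT, on the log2(FPKM + 1) scale, with 95% confidence interval from limma) of the 9 tested tubulin and lamin genes (black) and of 6 other tubulin genes (violet). Filled points were called at 2-fold, dotted lines mark 2-fold and the dashed line marks the median of all genes tested at -0.12, and Tubb3 at 3.40 and Tuba1b at -1.88 are the extremes; the sign of Tuba1c and Tubb4b turned under another scaling.

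Since the genes of a family did not change alike, the make-up of each family differed between the groups. Shares within a library do not depend on a factor applied to the whole library. Tuba1b made up 79.0% and 79.3% of the alpha-tubulin FPKM in WT and 52.4% and 55.5% in R111A. Tuba1a made up 1.91% and 1.97% in WT and 14.3% and 13.0% in R111A, and Tuba1c 9.10% and 9.37% in WT and 23.9% and 22.4% in R111A. The share of Tuba4a was 9.96% and 9.40% in WT and 9.37% and 9.13% in R111A, a difference smaller than the gap between the WT replicates and of opposite sign after quantile normalization. Tuba1b thus remained the leading alpha-tubulin in every library, at a lower share in R111A.

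In the beta-tubulins the leading gene differed, as Tubb5 was lower by far more than Tubb4b. Tubb5 made up 70.2% and 68.8% of the FPKM of the 3 beta-tubulin genes in WT and 45.5% and 42.3% in R111A, while Tubb4b made up 29.6% and 31.0% in WT and 53.9% and 57.0% in R111A. So Tubb5 led in both WT libraries and Tubb4b in both R111A libraries. Tubb6 was below 1% in every library, with 0.129% and 0.151% in WT and 0.554% and 0.705% in R111A. When all 8 beta-tubulin genes of the table were counted, a sum added after the data were seen, Tubb4b led in R111A as well, with 46.9% and 49.5% against 39.6% and 36.8% for Tubb5.

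The leading lamin differed as well, with Lmnb1 far lower and Lmnb2 little changed. Lmnb1 made up 64.3% and 62.4% of the lamin FPKM in WT and 43.7% and 42.3% in R111A, and Lmnb2 made up 34.8% and 36.8% in WT and 52.8% and 55.0% in R111A. The leading lamin was therefore Lmnb1 in WT and Lmnb2 in R111A. Lmna made up 0.942% and 0.779% in WT and 3.46% and 2.73% in R111A.

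**Figure D3:**
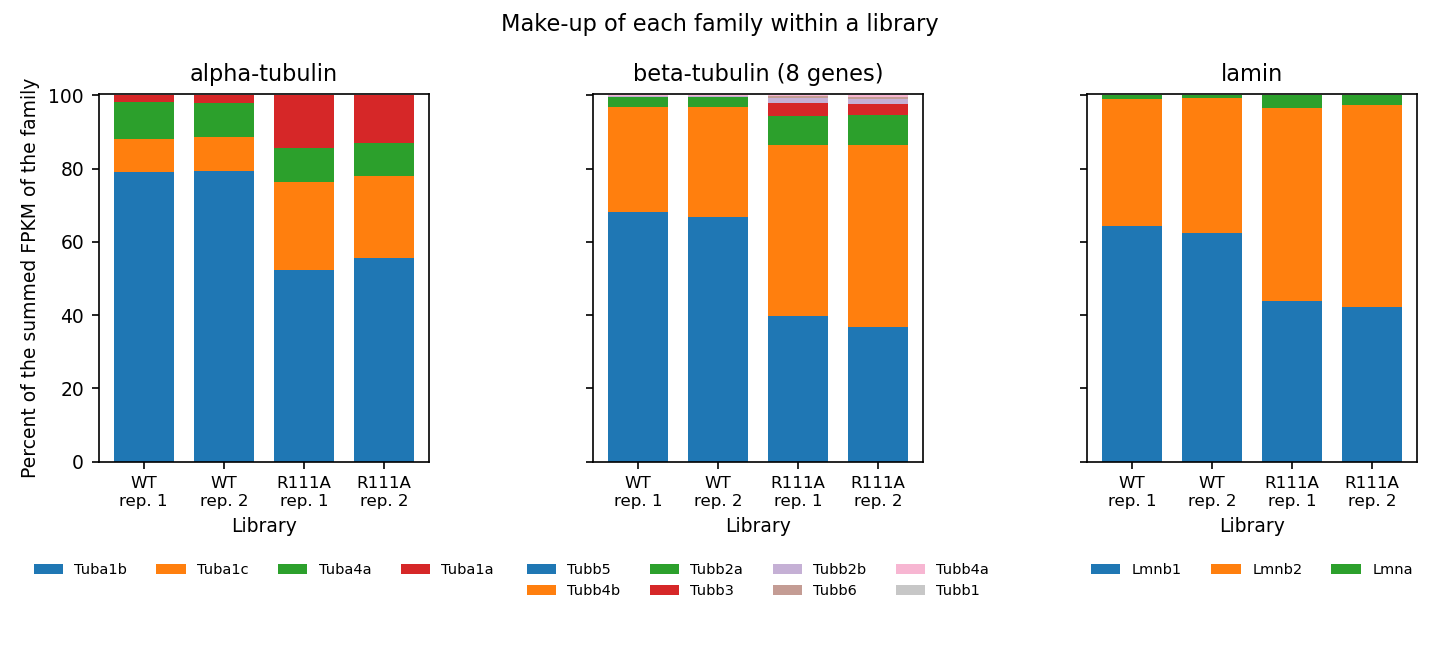
Share of each gene in the summed FPKM (percent) of the 4 alpha-tubulin genes, of all 8 beta-tubulin genes of the table and of the 3 lamin genes, with 1 stacked bar per library. The share of Tuba1b falls from 79.0% and 79.3% in WT to 52.4% and 55.5% in R111A, Tubb4b exceeds Tubb5 in both R111A libraries, and Lmnb2 exceeds Lmnb1 there.

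The family sums were lower in R111A. The 4 alpha-tubulin genes summed to 1859 and 1816 FPKM in WT and to 799.9 and 667 FPKM in R111A, a 2.51-fold difference of the means. For the 3 beta-tubulin genes the sums were 866 and 806 FPKM in WT and 446 and 353 FPKM in R111A, a 2.09-fold difference, and for the lamins 72.2 and 74.4 against 42.2 and 38.5 FPKM, a 1.82-fold difference. All 3 sums were lower in each R111A library than in either WT library as deposited, in TPM, with median-of-ratios factors and after quantile normalization. The ratio of the alpha- to the beta-tubulin sum was 2.15 and 2.25 in WT and 1.80 and 1.89 in R111A. An exact two-sided permutation test gave p = 0.333 for each of these sums, shares and ratios, the smallest p that 2 libraries against 2 allow, so the test cannot separate them from the spread between samples.

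By level, Tuba1b, Tubb5 and Tubb4b were the 3 most abundant of the 10 genes in WT, followed by Tuba4a and Tuba1c, whose WT ranges (171 to 185 FPKM and 169 to 170.2 FPKM) nearly touched, and then by Lmnb1, Tuba1a, Lmnb2, Tubb6 and Lmna. In R111A, Tuba1b was followed by Tubb4b, Tubb5 and Tuba1c, and the ranges of Tubb4b (201 to 240.1 FPKM) and of Tuba1c (149 to 191 FPKM) each overlapped that of Tubb5 (149 to 203 FPKM). Then came Tuba1a, Tuba4a, Lmnb2, Lmnb1, Tubb6 and Lmna. Tuba1a moved from below Lmnb1 to above Tuba4a, and Tubb4b, Tuba1c and Lmnb2 moved up by 1 place each.

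Of the 13 other tubulin genes, 7 had a mean below 1 FPKM, and Tuba3b and Tubal3 were at 0 in every library. Of the 6 tested, 0 were called lower and Tubb3 and Tubb2b were called higher, and by the adjusted p alone Tubg1 was lower and Tubb3, Tubb2b, Tubb2a and Tubb4a were higher. Tubb3 (NCBI gene 22152), a beta-tubulin used as a marker of neurons, was at 0.43 and 0.51 in the WT libraries and 18.1 and 11.6 FPKM in the R111A libraries. It lay below the filter of 1 FPKM in both WT libraries and well above it in both R111A libraries. The log2 fold change of Tubb3 was 3.40 (standard error 0.20, adjusted p = 9.4e-06, limma, and 0.003 with no filter, since it reached the filter only through its R111A values), and it shared no 150-base window with another beta-tubulin transcript.

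Tubb2b was at 1.48 and 1.18 FPKM in WT, against 6.36 and 6.20 in R111A (log2 fold change 1.65, adjusted p = 4.5e-05, limma). Tubb2a was the most abundant gene of this list, at 24.6 and 23.9 in the WT libraries and 40.2 and 34.0 FPKM in the R111A libraries. Its log2 fold change was 0.59 (adjusted p = 0.0076, limma), and the call was lost without WT replicate 1 (0.61), without WT replicate 2 (0.57) and after rescaling to TPM (0.26), with adjusted p from 9.9e-04 to 0.14 over the alternatives. Tubb2a and Tubb2b are 96.5% identical in coding sequence, so their reads may be shared as well. Tubg1, the gamma-tubulin of centrosomes, was at 28.5 and 26.4 FPKM in WT, against 18.04 and 12.2 in R111A. It was lower in both (log2 fold change -0.84, adjusted p = 0.0052, limma). Tubg1 reached a 2-fold change in TPM (-1.17) and without R111A replicate 1 (-1.11), against -0.58 without R111A replicate 2. Tubb4a was at 0.61 and 0.78 FPKM in WT, against 1.61 and 1.22 in R111A (log2 fold change 0.51, adjusted p = 0.020, limma), a call lost without WT replicate 1 (0.43), after quantile normalization (0.27) and in TPM (0.36), with adjusted p from 0.0056 to 0.19 over the alternatives. Tubd1, at 2.16 and 2.35 FPKM in WT and 1.15 and 1.75 in R111A, did not pass (-0.42, adjusted p = 0.055, limma). It passed in limma with the replicate block (adjusted p = 0.028), after quantile normalization (-0.58) and in TPM (-0.65, adjusted p = 0.0056). Without R111A replicate 1 or 2 the log2 fold change of Tubd1 was -0.24 or -0.60, in fits that take their spread from the WT pair alone. Tubb4a, too, with a WT mean of 0.695 FPKM, reached the filter only through its R111A values.

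Newly made tubulin is folded by prefoldin, a chaperonin and the cofactors A to E before it enters dimers. All 15 genes of folding cofactors and prefoldin were tested, of which 2 were called lower and 0 higher. By the adjusted p alone 6 were lower and 2, Pfdn5 and Txndc9, were higher, where the shares over all genes were 32.1% and 21.2%. The median log2 fold change was -0.34, and between -0.25 in TPM and -0.09 after quantile normalization relative to the median of all genes. The 2 called, Tbcd and Arl2, work together, as Tbcd is a beta-tubulin cofactor and Arl2 the small GTPase that binds it. Tbcd was at 25.0 and 24.6 in the WT libraries and 10.6 and 9.76 FPKM in the R111A libraries (log2 fold change -1.20, adjusted p = 1.6e-04, limma). Arl2 was at 32.3 and 35.4 FPKM in WT, against 15.5 and 14.5 in R111A (log2 fold change -1.13, adjusted p = 2.3e-04, limma). Both were lower in 2 of 2 R111A libraries. The most abundant gene of the list, the prefoldin subunit Pfdn5, was at 390.3 and 432 in the WT libraries and 654 and 648 FPKM in the R111A libraries (log2 fold change 0.66, adjusted p = 0.0022, limma).

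Of 19 genes of tubulin-modifying enzymes and of tubulin mRNA autoregulation, 13 were tested, 1 was called lower and 1 higher. The median log2 fold change was 0.04, with its sign turned after quantile normalization (-0.01) and in TPM (-0.27). By the adjusted p alone Ttll12, Hdac6 and Ttl were lower and Ttll3 and Agtpbp1 were higher. Ttll3, which adds glycine to tubulin, was at 2.76 and 2.72 FPKM in WT, against 22.5 and 26.9 in R111A (log2 fold change 2.78, adjusted p = 5.7e-06, limma). It overlaps the downstream end of Arpc4 on the same strand, and Arpc4 itself was at 89.0, 102, 82.7 and 67.8 FPKM in WT replicates 1 and 2 and R111A replicates 1 and 2, so a part of Arpc4 reads in the Ttll3 value was not tested. Ttll12, another member of the tubulin tyrosine ligase-like family, was at 21.2 and 18.9 in the WT libraries and 6.77 and 5.42 FPKM in the R111A libraries (log2 fold change -1.57, adjusted p = 8.0e-05, limma). Ttc5, which binds new tubulin chains at the ribosome and starts the decay of tubulin mRNA when free tubulin is plentiful, was the most abundant gene of the list. It was at 36.1 and 46.0 FPKM in WT, against 39.2 and 45.8 in R111A, so its groups overlapped (log2 fold change 0.05, adjusted p = 0.79, limma).

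The gamma-tubulin ring complex, from which microtubules grow, had 11 genes, all tested and none called at 2-fold. The median log2 fold change was -0.02, with its sign turned with median-of-ratios factors (0.07) and after quantile normalization (0.03). In TPM it was -0.33, or 0.08 relative to all genes, and Tubgcp2 and Nedd1 were called lower. By the adjusted p alone, Tubgcp2, Nedd1, Mzt1 and Tubgcp6 were lower and Tubgcp3 was higher. Tubgcp3, the most abundant, was at 16.8 and 18.3 in the WT libraries and 22.6 and 24.0 FPKM in the R111A libraries (log2 fold change 0.39, adjusted p = 0.039, limma), a call lost without either WT replicate (0.33 and 0.45), with no filter and in TPM (0.07), with adjusted p from 0.016 to 0.71 over the alternatives.

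Among regulators of microtubule dynamics in interphase cells, 21 of 25 genes in the table were tested, and 2 were called lower and 0 higher. By the adjusted p alone 8 were lower and 0 higher, where the shares over all genes were 32.1% and 21.2%. The median log2 fold change was -0.13, with -0.44 in TPM and -0.05 with median-of-ratios factors. Relative to the median of all genes it lay between -0.024 in TPM and -0.013 with median-of-ratios factors. Fignl1, an AAA ATPase of the microtubule-severing family that is also known for a role in DNA repair, was at 16.1 and 15.7 FPKM in WT, against 1.25 and 2.20 in R111A (log2 fold change -2.66, adjusted p = 1.6e-05, limma). Mapre2, which encodes the plus-end binding protein EB2, was at 20.5 and 18.3 in the WT libraries and 10.2 and 7.41 FPKM in the R111A libraries (log2 fold change -1.07, adjusted p = 0.0011, limma), and it was below 2-fold without WT replicate 1 (-0.99) or R111A replicate 2 (-0.86), with median-of-ratios factors (-0.98) and after quantile normalization (-0.99). The most abundant, Stmn1, which sequesters tubulin dimers, overlapped between the groups at 52.9 and 65.7 FPKM in WT and 71.7 and 55.1 FPKM in R111A.

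Of 19 spindle motors and assembly factors, all but Numa1 stayed at or under 7.28 FPKM, and 8 were below the filter. For each of these 8 the higher R111A value lay below the lower WT value, as it did for 14.9% of all 4617 genes under the filter but above 0, with 35.2% the other way, and with no filter Kif4, Cenpe, Tpx2 and Kif23 passed the adjusted p in limma (0.0048 to 0.011, log2 fold change -0.86 to -0.52). Of the 11 tested, Kifc1 was called lower and 0 were called higher. By the adjusted p alone Kifc1, Kif22, Aurka, Tacc3 and Ckap2 were lower and Kif15 and Numa1 were higher. The median log2 fold change was -0.29. Relative to the median of all genes it lay between -0.10 in TPM and -0.40 after quantile normalization. Kifc1, a minus-end-directed kinesin, was at 3.91 and 5.25 FPKM in WT, against 1.76 and 1.44 in R111A (log2 fold change -1.09), and it was below 2-fold without WT replicate 2 (-0.92). Numa1, which anchors microtubules at spindle poles and was the most abundant, was at 29.9 and 25.4 in the WT libraries and 46.2 and 33.6 FPKM in the R111A libraries (log2 fold change 0.50, adjusted p = 0.039, limma), a call lost without WT replicate 1 (0.62), WT replicate 2 (0.39) or R111A replicate 1 (0.28), with no filter and after rescaling to TPM (adjusted p from 0.0049 to 0.38 over the alternatives).

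Around the lamina, 18 of 19 genes of lamin-binding inner nuclear membrane proteins and of the LINC complex were tested, of which Nrm, Tmpo and Emd were called lower and Sun2 was called higher. By the adjusted p alone 8 were lower and 2, Sun2 and Syne1, were higher, where the shares over all genes were 32.1% and 21.2%. The median log2 fold change was -0.23, with -0.555 in TPM and -0.12 after quantile normalization. Relative to the median of all genes it lay between -0.14 in TPM and -0.075 after quantile normalization. Tmpo, which encodes the LAP2 proteins that bind lamins and chromatin, was at 75.9 and 78.0 FPKM in WT, against 29.4 and 33.7 in R111A (log2 fold change -1.26, adjusted p = 1.2e-04, limma). Its values fell about as far as those of Lmnb1. Emd, which encodes emerin, was at 82.4 and 86.2 in the WT libraries and 40.7 and 39.0 FPKM in the R111A libraries (log2 fold change -1.06), and Nrm, which encodes nurim, was at 6.12 and 7.44 FPKM in WT, against 2.11 and 2.23 in R111A (log2 fold change -1.29). With median-of-ratios factors and after quantile normalization Emd was just below 2-fold (-0.97 and -0.86).

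Sun2, which joins the lamina to the cytoskeleton through the LINC complex, was at 19.5 and 20.7 in the WT libraries and 59.9 and 37.2 FPKM in the R111A libraries. Both R111A libraries were above both WT libraries, although they differed from each other. The log2 fold change of Sun2 was 1.19 (standard error 0.21, adjusted p = 0.0016, limma), and it was below 2-fold without R111A replicate 1 (0.86) and after rescaling to TPM (0.87). Banf1, which bridges DNA and LEM-domain proteins and was the most abundant of the list, was at 353 and 358 FPKM in WT, against 219.8 and 207 in R111A (log2 fold change -0.74, adjusted p = 0.0012, limma). Of the 5 lamin-processing enzymes, all were tested and 0 passed the adjusted p. Their median of -0.08 turned its sign with median-of-ratios factors (0.01) and after quantile normalization (0.05). Fnta, the most abundant of them and a subunit of the farnesyltransferase that modifies B-type lamins, was at 40.0 and 41.5 in the WT libraries and 43.2 and 48.5 FPKM in the R111A libraries.

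For comparison, 26 genes of the actin cytoskeleton and vimentin had a median log2 fold change of -0.17 (-0.50 in TPM and -0.02 after quantile normalization). Relative to the median of all genes it lay between -0.08 in TPM and 0.02 after quantile normalization. Actg1 was called lower and 0 were called higher. By the adjusted p alone Actg1, Actb, Vim, Arpc1b and Arpc5 were lower and Tmsb4x and Myl12a were higher. Actg1, which encodes gamma-actin, was at 1285 and 1211 FPKM in WT, against 607 and 459 in R111A (log2 fold change -1.24, adjusted p = 2.8e-04, limma). The most abundant, Tmsb4x, which binds actin monomers, was at 3895 and 4499 in the WT libraries and 5696 and 5662 FPKM in the R111A libraries (log2 fold change 0.44, adjusted p = 0.020, limma). That call was lost without WT replicate 1 (0.34), with no filter and in TPM, and its sign turned after quantile normalization (-0.27), with adjusted p from 0.0099 to 0.45 over the alternatives. All lists together had 126 genes tested, of which 10 (7.94%) were called lower and 4 (3.17%) higher, against 8.34% and 8.52% of all genes. With the adjusted p alone, 40 (31.75%) were lower and 15 (11.90%) higher, against 32.1% and 21.2% of all genes. With a pseudocount of 5 FPKM, Tubb2b, Tbcd, Arl2, Mapre2, Kifc1, Emd and Nrm were below 2-fold. A look at the 26 list genes under the filter was added after the data were seen. By the adjusted p of limma with no filter, 5 (Tube1 and the 4 spindle genes named) were lower and 2 (Vash2 and Syne2) were higher. Of all genes under the filter but above 0, 6.0% were lower and 16.6% higher in the same fit. The 26 also hold Tuba3b, Tubal3 and Clip4, at 0 in every library, which that share leaves out. These lists were not tested as sets, and names outside the rule for naming genes were chosen after their values were seen.

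**Figure D4:**
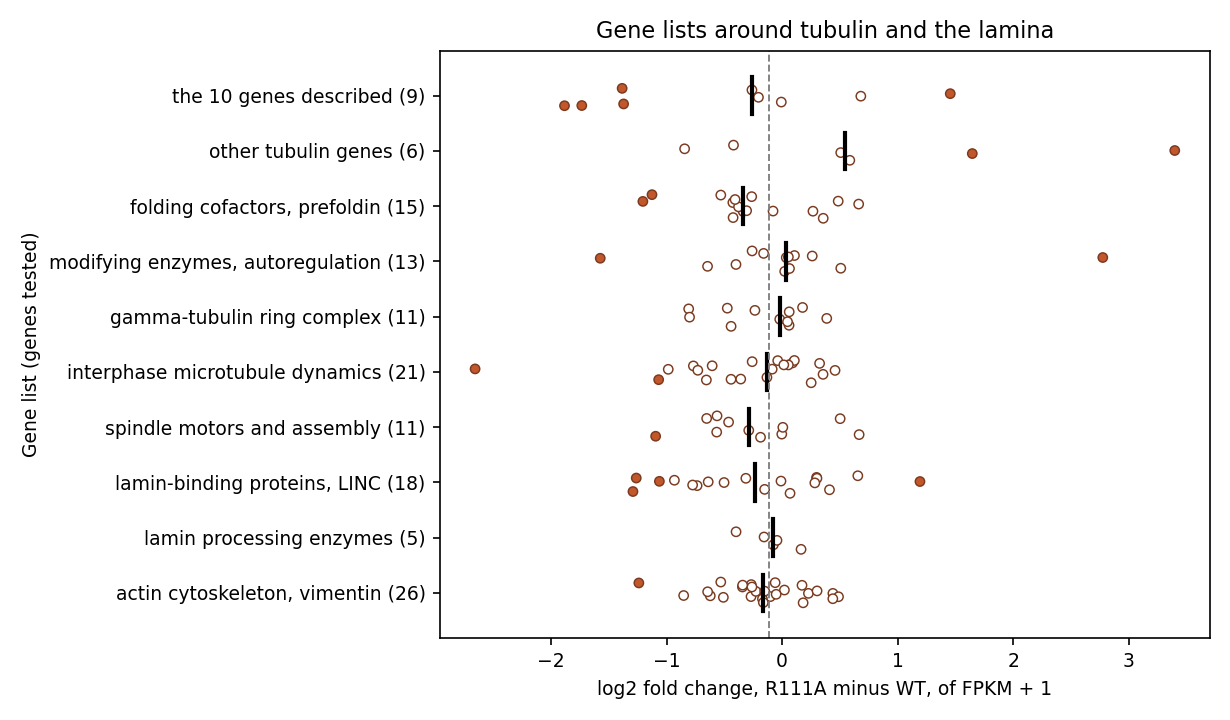
Log2 fold change (R111A minus WT, on the log2(FPKM + 1) scale) of each tested gene, grouped by list with the number tested, where filled points were called at 2-fold, thick bars are list medians and the dashed line is the median of all genes tested at -0.12. The list medians lie between -0.34 and 0.55, where the highest includes Tubb3 and Tubb4a, which reached the filter through their R111A values, and medians near 0 change sign with the scaling for 3 lists (tubulin-modifying enzymes, gamma-tubulin ring complex and lamin-processing enzymes).

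The genes whose profile over the 4 libraries was nearest to that of a member were taken from 7640 other genes whose mean reached 5 FPKM, by Euclidean distance of centred log2(FPKM + 1). For Tuba1b these were Atp5g3 (distance 0.076), Scarb1 (0.087) and Pacsin2 (0.10), of which Atp5g3 was at 759 and 776 FPKM in WT, against 223 and 205 in R111A. For Tubb5 they were Angptl2 (0.111), Coro1c (0.113) and Itgal (0.133), and for Lmnb1 they were Tbkbp1 (0.049), Cnot9 (0.051) and Impa2 (0.055). For Lmna they were Ell (0.029), Kdm1a (0.030) and Dyrk1a (0.041). The scale understates the change of Lmna (1.99-fold in FPKM) more than that of these more abundant genes. With 4 libraries in 2 groups, such a distance mainly reflects the difference between the groups and the gap between the R111A replicates.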

How the data were processed

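PolyA RNA of 2 WT and 2 R111A libraries was sequenced. Per the submitters' processing notes, the authors aligned reads to mm10 with Bowtie2 (2.4.4) and estimated expression with RSEM (1.2.28), and they deposited 1 table of FPKM values for 16142 genes. The authors ran DESeq2 on counts, which were not used here. FPKM hold no counts, and the depth behind a value is unknown. Summed FPKM was 801475 and 836143 in WT and 1053551 and 1012215 in R111A. Steps among low values put the depth of WT replicate 1 at 1.00, 1.06 and 1.19 times that of WT replicate 2, R111A replicate 1 and R111A replicate 2. Over 1938 genes whose mean reached 50 FPKM, the log2 ratio had a robust SD of 0.124 between WT and 0.316 between R111A replicates, so the latter carried most of the error.

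The scale was log2(FPKM + 1), the test limma 3.58.1 in R 4.3.3 (lmFit, eBayes with trend, Benjamini-Hochberg adjustment), and genes whose mean reached 1 FPKM were tested and called at an adjusted p under 0.05 and 2-fold, after the procedure was tested on simulated data. Shares within a library were compared by an exact permutation test. Members and lists were chosen with earlier results of these data known. Named were all members, in each list the 2 genes with the largest change among called genes whose mean reached 5 FPKM and whose groups were separate, plus the most abundant gene, the 3 nearest profiles of 4 members, Zc3h12a, and the most abundant markers and those at 0. Positions and promoters came from RefSeq (GRCm38.p6; 16107 of 16142 genes matched by NCBI gene ID), transcripts from GENCODE M21, aligned with biopython 1.88 in python 3.11.15 (pandas 2.3.3, numpy 2.4.6, matplotlib 3.10.9). For each gene the protein-coding transcript with the longest consensus coding sequence was used.

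Alternatives were a pseudocount of 0.1 or 5 FPKM, a filter at 5 FPKM or none, TPM, median-of-ratios factors, quantile normalization, a replicate block, eBayes without trend or with robust estimation, no fold threshold, the 3 Tuba1 genes summed, and each library left out in turn, where the lone library of a group was assumed to vary like the other group. Sums over all tubulin genes of the table, the ratios of Tuba1b to Tuba1a and of Lmnb1 to Lmnb2, Lmna with no filter under the other settings the count over all lists and genes under the filter were added after the data were seen.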

Additional observations from a re-analysis of the deposited data

How the results depend on the processing

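The calls of Tuba1b, Tuba4a, Tubb5, Lmnb1 and Tuba1a, at 2-fold and an adjusted p under 0.05, held in limma under each alternative that tested them singly. The counts of genes called lower and higher (820 and 838) were 402 and 386 with a pseudocount of 5 FPKM, 1749 lower in TPM, 521 higher with a filter at 5 FPKM, and 3152 and 2088 without the fold threshold. They were 821 and 841 with the replicate block; the replicate numbers of the labels are not stated to mark a shared batch, same-numbered libraries deviated with a correlation of 0.111 over 2 pairs, and the 4 lower and 1 higher calls among the tubulin and lamin genes were as many with it. The members called higher were 2 with a pseudocount of 0.1 FPKM (Tubb6 added) and 2 without the fold threshold, and 0 with the Tuba1 genes summed, which removes Tuba1a. The genes of all lists called lower (10 of 126 tested) were 4 with a pseudocount of 5 FPKM and 20 in TPM. The same counts over all 9831 genes tested were 402 and 1749. Without the fold threshold, 40 genes of the lists (31.75%) were lower and 15 (11.90%), rather than 4, were higher, against 32.1% and 21.2% of all genes. Tubb4b and Lmnb2 passed in TPM (-0.54 and -0.58), and leaving out each library gave -0.33 to -0.077 and -0.32 to -0.20. The change of Lmna, taken with no filter, missed the threshold with a pseudocount of 0.1 FPKM (0.88), in TPM (0.32), after quantile normalization (0.26), without trend (0.46) and without 3 of the libraries (0.33 to 0.59 over all 4). Tmsb4x turned to -0.27 after quantile normalization. That setting, the one that alters shares within a library, gave differences between the groups of -28.0 points for Tuba1b, 15.1 for Tuba1c, 0.698 for Tuba4a (its sign turned from -0.433) and 1.55 for Lmna, of -0.524 for the ratio of alpha- to beta-tubulin and of 0.0161 for that of Lmna to the B-type lamins. The cause of these shifts was not tested.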
